A study of Mus musculus with 8 samples.

Results

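The transcripts described here come from the imprinted Dlk1-Dio3 region of mouse chromosome 12, read on 8 Affymetrix mouse expression arrays. The members are all probe sets that name only Meg3, Rian, Mirg, Dlk1 or Dio3 in the annotation of the array. There were 19 of them among 34945 probe sets that name 1 gene, namely 11 for Meg3, 4 for Rian, 2 for Mirg and 2 for Dlk1. No probe set named Dio3 alone, so that 4 of the 5 genes were measured, among 18193 genes in all. They were chosen by their log2 values on the Tfap2c-/- arrays, where those numbered 2 lay far from those numbered 1 in both cell types. Values of the Tfap2c-/- arrays are therefore given as a description, with no test, and members were tested only between the control groups, PGCLCs against ESCs.

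The 4 groups were Tfap2c-/- primordial germ cell-like cells (PGCLCs), control PGCLCs, Tfap2c-/- embryonic stem cells (ESCs) and control ESCs, with 2 arrays each, numbered 1 and 2. Tfap2c codes for the transcription factor TFAP2C (AP-2 gamma), which is needed for the germ cell lineage. All cells carried the Blimp1mVenus reporter. The controls were a pair of parental Blimp1mVenus/Tfap2c flox/flox ESC lines, in which both Tfap2c alleles are flanked by loxP sites. The Tfap2c-/- ESC lines were made from them by transient transfection of a pGK-Cre plasmid, so that a group holds no more than a pair of lines. The study names both lines of each genotype as the material of the arrays, so the 2 arrays of a group stand for 2 lines. ESCs were taken through epiblast-like cells and then cultured with BMP4, BMP8b, SCF, LIF and EGF, and PGCLCs were sorted for the reporter. The sample labels give the arrays of a group the numbers 1 and 2 without saying which ESC line a number stands for. Whether same-numbered arrays come from the same line is therefore not known here.

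Imprinted genes are expressed from the chromosome of one parent. In the Dlk1-Dio3 region the paternal chromosome expresses Dlk1, which codes for a transmembrane ligand related to Delta that acts in growth and fat cell differentiation, and Dio3, which codes for a deiodinase that inactivates thyroid hormone. The maternal chromosome expresses the noncoding RNAs Meg3 (also Gtl2), Rian and Mirg, which lie one after another on the same strand and are thought to be transcribed as a long unit from the Meg3 promoter. Rian hosts small nucleolar RNAs and Mirg hosts microRNAs. RefSeq places 57 microRNA genes and 19 small nucleolar RNA genes between the start of Meg3 and the end of Mirg. The choice of parental chromosome rests on DNA methylation between Dlk1 and Meg3, and in cultured mouse pluripotent cells this region is known for being silenced in some lines and not in others.

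The start of Meg3 is shown because all 3 noncoding genes are thought to be read from it, and that of Dlk1 because it is the nearest protein-coding member upstream. RefSeq start windows, from 250 bases before to 50 bases after the start, were found for all 5 genes. Capitals mark matches, on either strand, to the AP-2 motif GCCNNNGGC or to the cAMP response element TGACGTCA, and the matches did not overlap. Both sequences are from build GRCm38.p6, plus strand.
Meg3, chr12:109540746-109541045: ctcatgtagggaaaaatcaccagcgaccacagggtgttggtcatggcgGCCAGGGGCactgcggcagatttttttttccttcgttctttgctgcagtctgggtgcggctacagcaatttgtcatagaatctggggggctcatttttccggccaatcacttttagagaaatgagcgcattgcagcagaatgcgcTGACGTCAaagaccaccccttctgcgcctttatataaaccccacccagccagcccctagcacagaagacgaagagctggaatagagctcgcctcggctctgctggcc
Dlk1, chr12:109452573-109452872: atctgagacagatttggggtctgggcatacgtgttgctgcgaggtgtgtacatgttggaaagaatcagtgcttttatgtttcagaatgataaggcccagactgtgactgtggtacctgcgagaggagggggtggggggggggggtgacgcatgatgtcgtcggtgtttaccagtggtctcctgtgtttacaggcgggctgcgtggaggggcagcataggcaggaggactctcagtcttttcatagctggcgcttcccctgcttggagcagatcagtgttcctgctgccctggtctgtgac
The Meg3 window held 1 AP-2 match, beginning at position −202 from the start, and 1 cAMP response element, beginning at position −57. Of 32851 such windows in RefSeq, 16.6% held the AP-2 motif and 1.79% the cAMP response element. The windows of Dlk1, Rian, Mirg and Dio3 and a second, downstream start of Meg3 held neither motif. These are matches of letters only.

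Tfap2c was lower on the Tfap2c-/- arrays of both cell types. Its most highly expressed probe set read 8.52 and 8.85 on the log2 scale in Tfap2c-/- PGCLCs, against 9.84 and 10.29 in control PGCLCs. The Tfap2c-/- ESC arrays read 7.28 and 6.47, against 7.88 and 9.14 in control ESCs. Neither difference passed limma. It was −1.38 in PGCLCs (SE 0.42, adjusted p = 0.150) and −1.63 in ESCs (SE 0.42), where no gene passed. Whether these probes lie in the part removed by Cre is not given in the sources used here. Array medians ran from 3.47 to 3.55. The Gapdh 3′ probe set exceeded its 5′ probe set by 0.95 on control PGCLC array 2 and by 0.31 to 0.52 on the other arrays. Of the germ cell markers Prdm1, Prdm14, Dppa3, Dnd1, Kit and Tfap2c, 4 of 6 were higher and none lower in control PGCLCs against control ESCs by limma (adjusted p under 0.05, with 4.64% of all genes higher). Dppa3 was higher by 4.05 (SE 0.85, adjusted p = 0.0300) and Prdm1, the Blimp1 gene, by 1.99 (SE 0.34, adjusted p = 0.0148). The PGCLCs were sorted for a Blimp1 reporter, so Prdm1, which is among the 4, is not an independent marker of them. Of 7 ESC markers 3 were lower (3.72% of all genes), with Klf4 lower by 4.22 on the log2 scale.

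Meg3, Rian and Mirg were low on array 2 of the Tfap2c-/- PGCLCs, between 2.99 and 3.91 on the log2 scale, and high on array 1, between 7.94 and 10.60. In Tfap2c-/- ESCs they were lower on array 2 as well, while array 1 stood near the controls. Values are log2 levels of the probe set with the highest mean of each gene. Meg3, a noncoding RNA with growth-restraining activity in cell lines, read 10.60 and 3.91 on Tfap2c-/- PGCLC arrays 1 and 2, against 8.61 and 7.96 on control PGCLC arrays 1 and 2. In ESCs it read 9.34 and 6.14 on Tfap2c-/- arrays 1 and 2, against 10.13 and 9.54 on control arrays 1 and 2. The Tfap2c-/- arrays thus lay on both sides of the controls in PGCLCs and below them in ESCs. Array 2 minus array 1 was −6.68 in Tfap2c-/- PGCLCs and −3.20 in Tfap2c-/- ESCs. The value of 3.91 lies close to the median of its array, 3.55, so the first difference is not given as a fold.

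Rian, the host of C/D box small nucleolar RNAs, had the widest range of the 4 genes on this scale, 1 probe set a gene. It read 10.51 and 2.99 in Tfap2c-/- PGCLCs, against 8.63 and 7.86 in control PGCLCs. The Tfap2c-/- ESC arrays read 9.61 and 5.61, against 9.98 and 9.64 in control ESCs. Again array 2 was the low one in both cell types, and array 1 was above both controls in PGCLCs and just under both in ESCs. Array 2 minus array 1 was −7.52 in Tfap2c-/- PGCLCs and −4.00 in Tfap2c-/- ESCs. On Tfap2c-/- PGCLC array 2 Rian stood at percentile 41.3 of all probe sets on that array, against percentile 98.5 on array 1, so that its value there cannot be told from background and gives no fold.

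Mirg, the microRNA host, followed the same order. It read 7.94 and 3.09 in Tfap2c-/- PGCLCs, against 5.20 and 5.06 in control PGCLCs. The Tfap2c-/- ESC arrays read 6.59 and 3.70, against 7.34 and 6.64 in control ESCs. The control PGCLC arrays differed by 0.14 only. Tfap2c-/- PGCLC array 1 lay 2.74 above control array 1, and Tfap2c-/- PGCLC array 2 lay 1.97 below control array 2. The value of 3.09 stood at percentile 42.9 of its array and cannot be told from background, which limits the second difference.

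**Figure D1:**
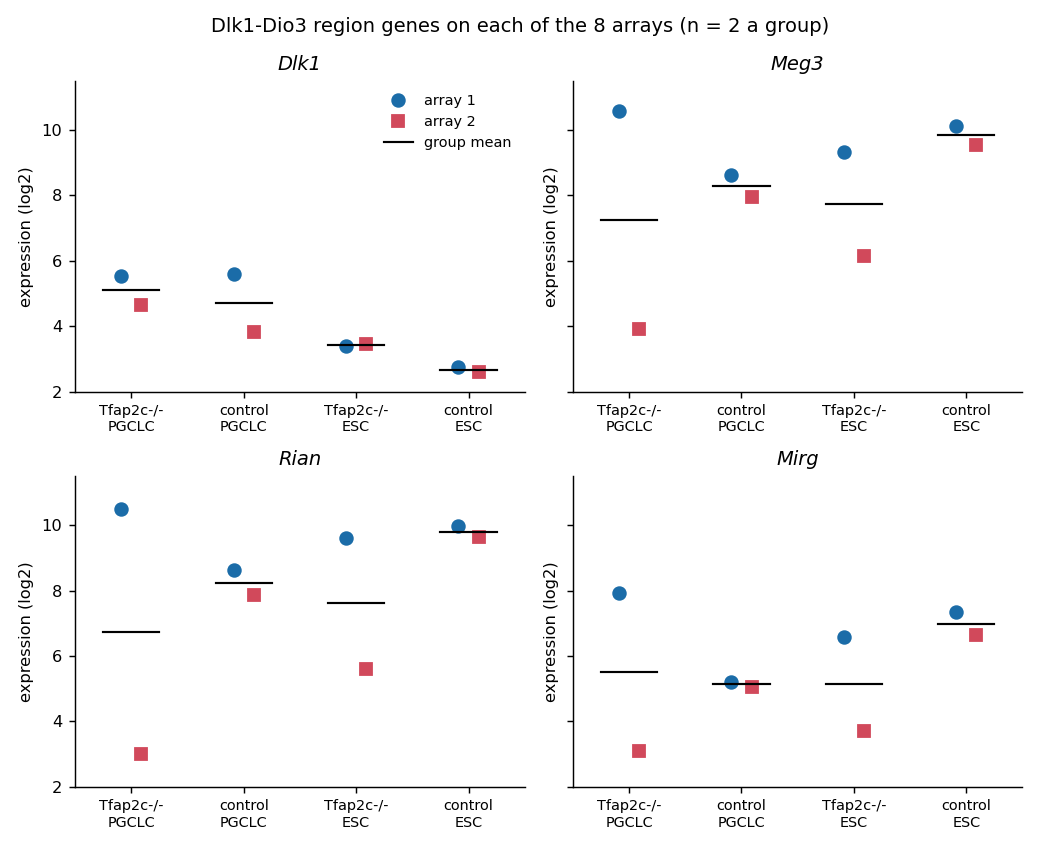
Expression (log2) of Dlk1, Meg3, Rian and Mirg on each array, with Tfap2c-/- left of control for PGCLCs and then for ESCs. Circles are arrays numbered 1, squares arrays numbered 2 and bars group means (n = 2 a group, no error bar drawn). Meg3 spans 10.60 and 3.91 in Tfap2c-/- PGCLCs, while Dlk1 stays between 2.59 and 5.61 over all arrays.

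The group means hide this split. Meg3 averaged 7.25 ± 4.73 in Tfap2c-/- PGCLCs and 8.28 ± 0.46 in control PGCLCs (SD, n = 2 each), a difference of −1.03. Rian averaged 6.75 ± 5.32 in Tfap2c-/- PGCLCs and 8.25 ± 0.55 in control PGCLCs, a difference of −1.50, and Mirg averaged 5.52 ± 3.43 in Tfap2c-/- PGCLCs and 5.13 ± 0.10 in control PGCLCs, a difference of 0.39. The SD of the Tfap2c-/- PGCLC pair exceeded these differences for all 3 genes. In ESCs the differences of Tfap2c-/- from control were −2.10 for Meg3, −2.20 for Rian and −1.84 for Mirg, with an SD of 2.27, 2.83 and 2.04 in the Tfap2c-/- pair. In PGCLCs the sign of these differences turned with the array left out. Without Tfap2c-/- PGCLC array 2 Meg3 was 2.31, Rian 2.26 and Mirg 2.81 above the control mean, and without Tfap2c-/- PGCLC array 1 they were at −4.37, −5.26 and −2.04 from it. With the mean of all probe sets of a gene, Tfap2c-/- minus control PGCLCs was −0.20 for Meg3 and turned to 0.09 for Rian. By the fold rule of the study's methods, a group mean difference above 1.5 on the log2 scale, 2 of the 17 Meg3, Rian and Mirg probe sets were lower in Tfap2c-/- PGCLCs and 8 of 17 in Tfap2c-/- ESCs. Of all 34945 probe sets 0.698% were lower by this rule in PGCLCs and 0.0916% in ESCs.

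The probe sets of the 3 noncoding genes varied together. Tfap2c-/- PGCLC array 2 was the lowest of the 4 PGCLC arrays on 15 of 17 and Tfap2c-/- PGCLC array 1 the highest on all 17. Among all probe sets array 2 was lowest on 29.1%, array 1 highest on 20.7% and both held on 5.9%. In ESCs Tfap2c-/- array 2 was the lowest on all 17 (33.4% of all probe sets), and array 1 lay between the controls on 7 and below both on 10 (12.3% of all probe sets had both Tfap2c-/- ESC arrays below both controls). Array 2 lay more than 1.5 below array 1 on 14 of 17 in PGCLCs (0.535% of all probe sets) and on 9 of 17 in ESCs (0.587%). In both cell types together this held for 9 of 17, among 22 probe sets in all (0.063%). These counts repeat what the genes were chosen for and carry no test.

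The size of the difference went with the brightness of the probe set, in PGCLCs partly by construction. Brightness is the highest value over the 8 arrays, which was often that of Tfap2c-/- PGCLC array 1. The PGCLC difference is taken from that same value, and the genes were chosen for it. For the 8 probe sets with a highest value of 7 or more, array 2 minus array 1 ran between −8.24 and −3.97 in Tfap2c-/- PGCLCs and between −4.00 and −2.19 in Tfap2c-/- ESCs. For the 9 dimmer ones it ran between −3.36 and −1.03 in Tfap2c-/- PGCLCs and between −2.44 and −0.14 in Tfap2c-/- ESCs. Low levels lie at the background of the array, where differences are compressed. The widest difference was that of a Meg3 probe set (1452905_at) with 10.21 and 1.97 in Tfap2c-/- PGCLCs, against 8.14 and 7.49 in control PGCLCs. Another Meg3 probe set (1436713_s_at) read 7.79 and 1.18 in Tfap2c-/- PGCLCs, against 5.57 and 4.63 in control PGCLCs, and its lower value was near the floor of that array. Over the 8 arrays the 8 bright probe sets correlated with each other at Pearson r of 0.92 to 1.00 (median 0.97). These points share the arrays and their normalization, and r takes in the split between Tfap2c-/- arrays that the genes were chosen for.

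**Figure D2:**
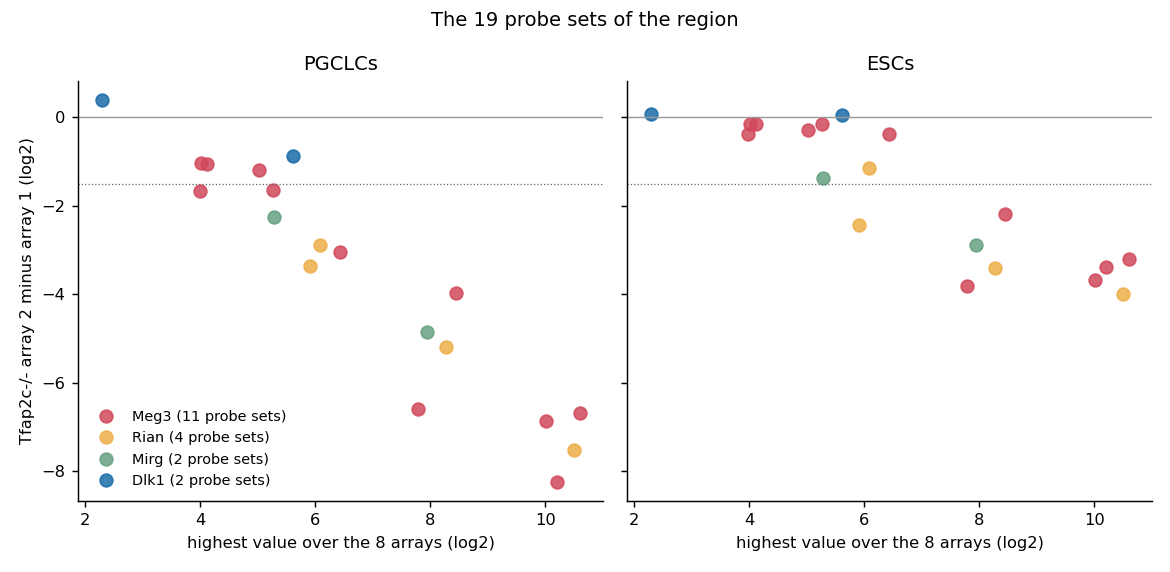
For each of the 19 probe sets, Tfap2c-/- array 2 minus array 1 (log2) against the highest value over the 8 arrays (log2), in PGCLCs (left) and ESCs (right). Colours mark genes and the dotted line a difference of −1.5. Differences widen with the level, to −8.24 in PGCLCs and −4.00 in ESCs, and both Dlk1 probe sets stay above the line. The highest value is often that of Tfap2c-/- PGCLC array 1, so in PGCLCs the relation is partly built in.

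Seen against all genes, the 3 noncoding RNAs stood at or near the far end in both cell types. They were chosen for these same differences, so their place is a description. Counted from the lowest difference, Rian, Meg3 and Mirg ranked 1, 2 and 3 in PGCLCs and 2, 5 and 11 in ESCs. A gene was taken as its probe set with the highest mean. Tfap2c-/- array 2 lay more than 1.5 below array 1 for 113 genes in PGCLCs (0.621%), for 127 in ESCs (0.698%) and in both for 11 (0.0605%). Rian, Meg3 and Mirg were the first 3 of these 11 by the mean of both differences, at −5.76, −4.94 and −3.87, and the next were Rnf157 at −2.13 and Rmdn1 at −1.99. Galc, the lysosomal galactosylceramidase, Igsf23 and Fabp5 are also among the 11 and were picked after their values were seen. Galc and Igsf23 were lower on array 2 in the controls too, with differences of −2.05 and −2.13 in control PGCLCs and of −1.58 and −2.09 in control ESCs. Fabp5, a fatty acid-binding protein, read 9.71 and 7.75 in Tfap2c-/- PGCLCs, against 10.37 and 9.52 in control PGCLCs. The opposite pattern, array 2 more than 1.5 above array 1 in both cell types, was shown by 2 genes (0.011%), Nod1, a cytosolic receptor for bacterial peptidoglycan, and Cep126, a centrosomal protein. They were also higher on array 2 in the controls, Nod1 by 2.15 in control PGCLCs and 1.72 in control ESCs and Cep126 by 2.42 in control PGCLCs and 1.66 in control ESCs. On the probe set taken for each gene, Meg3, Rian and Mirg differed by 0.77 or less between the control arrays of either cell type. Array 2 was the lower one each time. Other probe sets did not all follow. Rian probe set 1428055_at read 5.91 and 3.83 on control ESC arrays 1 and 2, a difference of −2.07. Meg3 probe set 1452906_at was higher on array 2 in control PGCLCs, by 0.18.

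**Figure D3:**
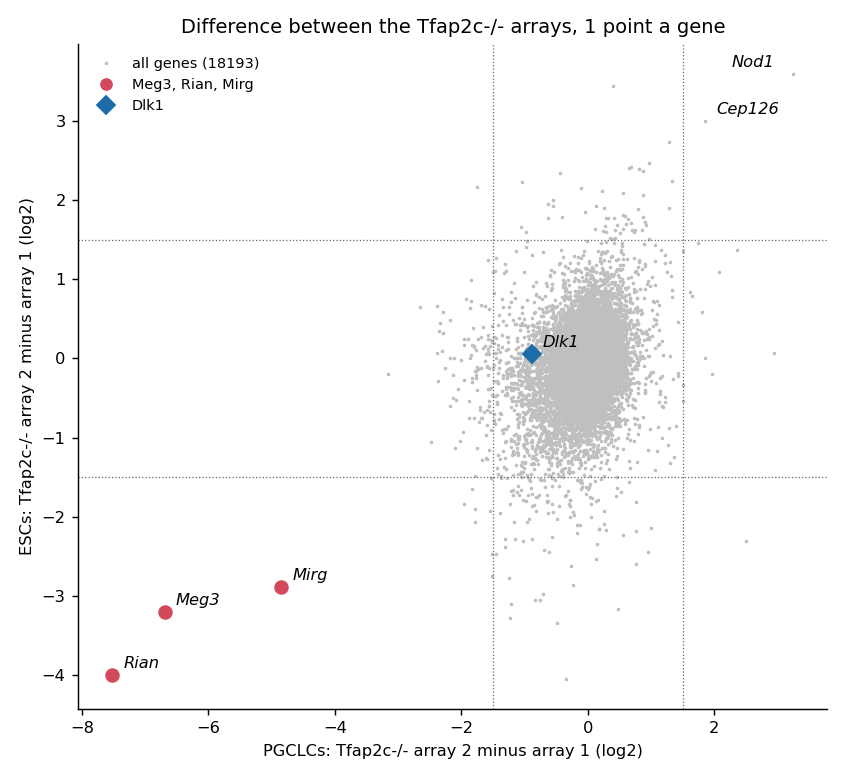
Tfap2c-/- array 2 minus array 1 (log2) in ESCs against the same difference in PGCLCs, 1 point for each of 18193 genes. Dotted lines mark 1.5 in either direction. The 3 noncoding RNAs were chosen for these differences. Rian (−7.52 in PGCLCs, −4.00 in ESCs), Meg3 (−6.68, −3.20) and Mirg (−4.85, −2.89) lie apart at the lower left, and Dlk1 (−0.88, 0.05) lies within the cloud.

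Between the control groups all 3 noncoding RNAs were lower in PGCLCs than in ESCs, without passing the test in the fit of 8 arrays. Meg3 was lower on both control PGCLC arrays than on both control ESC arrays, by 1.55 on average (SE 1.91, adjusted p = 0.690, limma over 18193 genes), and by 0.69 with its 11 probe sets averaged (adjusted p = 0.763). Rian was lower by 1.56 (SE 2.19, adjusted p = 0.731) and Mirg by 1.86 (SE 1.46, adjusted p = 0.505). The spread in this fit is pooled over the 4 groups and takes in the Tfap2c-/- pairs, whose split the members were chosen for. For Meg3, Rian and Mirg this fit therefore cannot decide, and a count of members past it is no result about them. With only the 4 control arrays in the fit, the same differences had an SE of 0.29, 0.28 and 0.27 and an adjusted p of 0.0454 for Meg3, 0.0409 for Rian and 0.0263 for Mirg. That fit of 4 arrays called 1185 of the 18193 genes, 494 of them lower, and its spread rests on 2 arrays a group. With Dlk1, 0 of 4 members passed in the fit of 8 arrays, against 8.37% of all genes called. At an unadjusted p under 0.05 it was 1 of 4, near the 23.4% of all genes. The control PGCLC arrays were both below both control ESC arrays on 6 of 11 Meg3, 4 of 4 Rian and 2 of 2 Mirg probe sets, against 29.2% of all probe sets.

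Within the Tfap2c-/- cells, PGCLCs and ESCs of the same number differed in opposite directions. Tfap2c-/- PGCLCs minus Tfap2c-/- ESCs was 1.26 on array 1 and −2.23 on array 2 for Meg3, and 0.90 and −2.62 for Rian. In the controls PGCLCs minus ESCs was −1.52 for Meg3 on array 1 and −1.58 on array 2. For Mirg the Tfap2c-/- differences were 1.35 on array 1 and −0.61 on array 2. Arrays of the same number are not known to come from the same line, so these are not paired differences. Rian and Mirg cannot be told from background on Tfap2c-/- PGCLC array 2, which limits their differences on array 2.

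Dlk1, the paternally expressed member, did not share this pattern. Its brighter probe set read 5.54 and 4.66 in Tfap2c-/- PGCLCs, against 5.61 and 3.83 in control PGCLCs. In Tfap2c-/- ESCs it read 3.41 and 3.46, against 2.74 and 2.59 in control ESCs. The PGCLC groups overlapped, and the mean of Tfap2c-/- ESCs lay 0.77 above that of control ESCs, at levels near the background. The other probe set stayed between 1.85 and 2.30 on all arrays. From the order of the group means, Dlk1 was highest in Tfap2c-/- PGCLCs (5.10 ± 0.62) and control PGCLCs (4.72 ± 1.26), lower in Tfap2c-/- ESCs (3.43 ± 0.04) and lowest in control ESCs (2.66 ± 0.11; SD, n = 2 each). The first and second of these did not differ beyond their spread.

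Dlk1 was 2.06 higher in control PGCLCs than in ESCs of the same genotype (SE 0.53, adjusted p = 0.0559, limma), just short of the threshold. It passed when replicate number was added as a block (adjusted p = 0.0300), with dim genes left out (adjusted p = 0.0490) and without control PGCLC array 2 (a difference of 2.95, adjusted p = 0.0194), and it was at 1.17 without control PGCLC array 1. With both probe sets averaged the difference was 0.97, and on the dimmer one alone −0.13.

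Among PGCLC arrays Dlk1 was high on arrays 1 and lower on arrays 2 in both groups. The genes named next were chosen from the lists and were ordered in the same way. Other imprinted genes of the lists went the other way, such as Peg3 and Kcnq1ot1, which were higher on array 2 in both PGCLC groups. Over all genes array 2 minus array 1 correlated at 0.39 between the PGCLC groups, and the share ordered like Dlk1 is not given here. Igf2, a paternally expressed growth factor, read 9.45 and 8.11 in Tfap2c-/- PGCLCs, against 9.33 and 7.43 in control PGCLCs. Cdkn1c, a maternally expressed inhibitor of cyclin-dependent kinases, read 7.55 and 5.86 in Tfap2c-/- PGCLCs, against 7.43 and 6.25 in control PGCLCs. The collagen gene Col1a1, a marker of fibroblasts and mesenchyme, read 5.27 and 4.30 in Tfap2c-/- PGCLCs, against 5.06 and 3.13 in control PGCLCs. Both Igf2 (by 3.81, SE 0.61, adjusted p = 0.0122, limma) and Cdkn1c (by 2.66, SE 0.58, adjusted p = 0.0341) were higher in PGCLCs than in ESCs of the control lines. With each array left out in turn Igf2 passed in 6 fits of 8, not without either control ESC array, and Cdkn1c in 4, not without any 1 of the control arrays. Of the 7 fibroblast or mesenchyme markers none passed in that comparison. The sum of their linear levels without Fn1, which was high in all groups, was 117 and 57.0 for Tfap2c-/- PGCLCs, 87.0 and 46.8 for control PGCLCs, 41.9 and 39.0 for Tfap2c-/- ESCs and 41.1 and 41.0 for control ESCs. With Fn1 the sums were 1673 and 1859 for Tfap2c-/- PGCLCs, 1226 and 1009.8 for control PGCLCs, 1181 and 1775 for Tfap2c-/- ESCs and 1056 and 967 for control ESCs, so that array 2 was then the higher one in both Tfap2c-/- pairs. The 3 collagens were picked from the 7 markers after their values were seen. Of the other 4, Thy1 was lower on array 2 in both PGCLC groups, while array 2 minus array 1 was 0.21 in Tfap2c-/- PGCLCs and −0.24 in control PGCLCs for Fn1, 0.38 and −0.37 for Lum and 0.11 and 0.59 for Postn. The defining marker Lum lay between 2.07 and 2.61 and Postn between 2.23 and 3.28 on all arrays, at background. In bulk RNA more cells of a type and more RNA per cell cannot be told apart, and the part of such cells in the Dlk1 values was not tested.

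**Figure D4:**
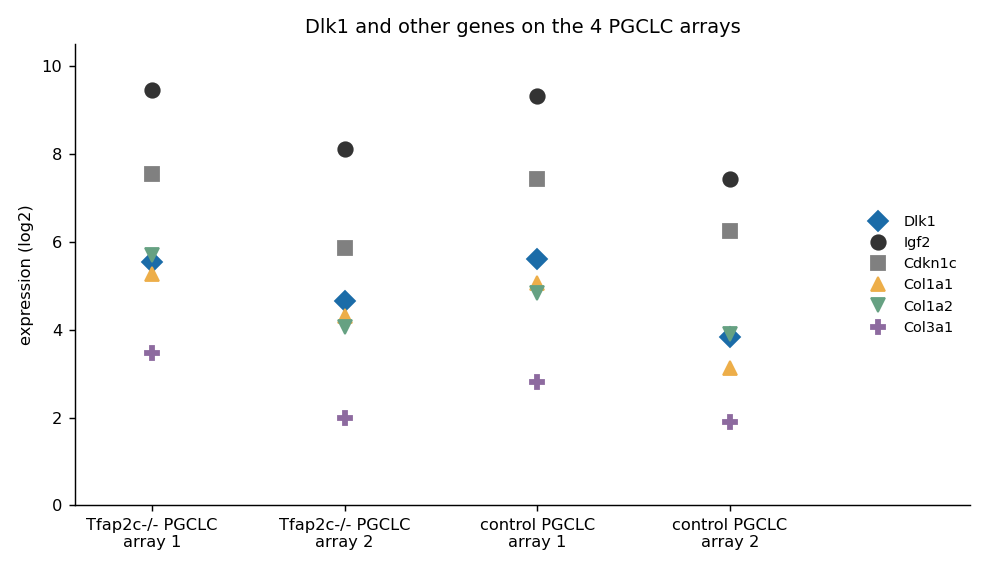
Expression (log2) of Dlk1, Igf2, Cdkn1c, Col1a1, Col1a2 and Col3a1 on the 4 PGCLC arrays, with Tfap2c-/- left of control. Each point is 1 array. All 6 genes are lower on array 2 than on array 1 in both groups, Dlk1 by 0.88 in Tfap2c-/- PGCLCs and by 1.78 in control PGCLCs. The collagens are 3 of 7 markers, picked after their values were seen. Igf2 and Cdkn1c were chosen from the listed imprinted genes, some of which went the other way.

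None of the measured neighbours of the region lay more than 1.5 below array 1 on Tfap2c-/- array 2. In the order along the chromosome, Degs2, Yy1, Slc25a29, Wars and Wdr25 precede Dlk1, and Dio3os, Ppp2r5c and Dync1h1 follow Mirg. Over these 8 genes Tfap2c-/- array 2 minus array 1 ran between −0.16 and 0.71 in PGCLCs and between −0.77 and 0.52 in ESCs, and none passed 1.5. Wdr25 gave the −0.77 in ESCs, and Dio3os, the antisense RNA at Dio3, gave the 0.71 in PGCLCs with 2.63 and 3.33 in Tfap2c-/- PGCLCs, against 3.15 and 3.26 in control PGCLCs. Ppp2r5c was lower on Tfap2c-/- ESC array 2 by a similar amount, −0.74, with 9.71 and 8.97, against 9.59 and 9.90 in control ESCs. Yy1, a zinc finger transcription factor, lay between 9.62 and 9.87 on all 8 arrays. Of the 8, Dync1h1, the heavy chain of cytoplasmic dynein, passed in control PGCLCs against control ESCs, at 0.85 higher (SE 0.19, adjusted p = 0.0380), and none passed in the comparisons of Tfap2c-/- with control cells. It passed in 2 of 8 fits with 1 array left out, those without a Tfap2c-/- ESC array, and failed with its probe sets averaged.

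**Figure D5:**
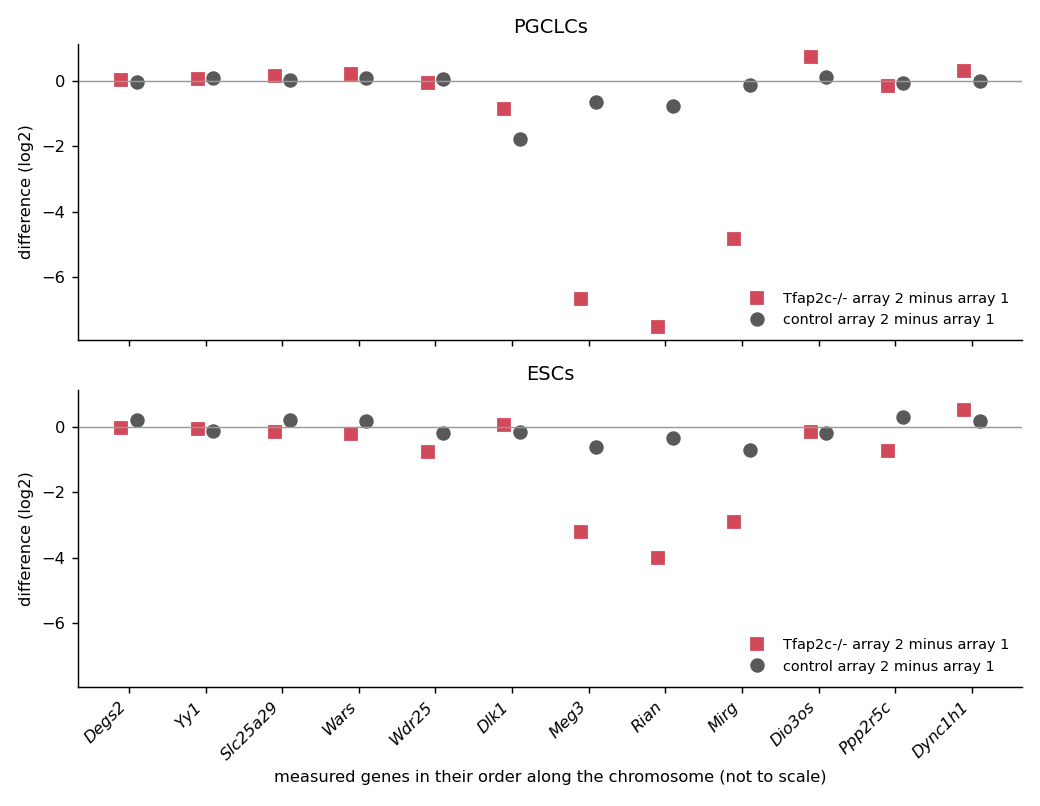
Array 2 minus array 1 (log2) for the 12 measured genes of the region in their order along the chromosome (not to scale), in PGCLCs (top) and ESCs (bottom). Squares are Tfap2c-/- arrays and circles controls. The low values of Tfap2c-/- array 2 cover Meg3, Rian and Mirg, while all other genes stay between −0.88 and 0.71 apart from Dlk1, at −1.78 in control PGCLCs.

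No other imprinted gene of the lists was lower on Tfap2c-/- array 2 by more than 1.5 in both cell types. Of 11 other maternally expressed genes, Tfap2c-/- array 2 lay more than 1.5 below array 1 for Cdkn1c in PGCLCs (−1.69) and for none in ESCs, where Phlda2, a placental growth regulator, was nearest at −1.48. Of 19 paternally expressed genes it was Sgce in PGCLCs (−1.56) and Slc38a4, an amino acid transporter, in ESCs (−3.17). Slc38a4 read 5.47 and 2.30 in Tfap2c-/- ESCs, against 5.15 and 7.61 in control ESCs, so its control arrays were apart as well. The median difference over the lists was 0.00 and −0.44 in PGCLCs and −0.24 and −0.09 in ESCs for maternally and paternally expressed genes, against −0.02 and −0.05 over all genes in PGCLCs and ESCs. Grb10, an adaptor of growth factor receptors, was singled out after its values were seen, because its split lay in the controls. It read 10.13 and 10.23 in Tfap2c-/- PGCLCs, against 3.56 and 8.27 in control PGCLCs. In Tfap2c-/- ESCs it read 8.33 and 7.64, against 4.31 and 9.02 in control ESCs. Its low arrays were thus the controls numbered 1 of both cell types.

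Genes that keep imprints and methylate DNA were in part changed in Tfap2c-/- PGCLCs, on both arrays alike. Of 15 genes 2 were higher and 1 lower by limma (adjusted p under 0.05), with 1.29% of all genes higher, 1.8% lower and 3.09% called in either direction. Zfp57, a zinc finger protein that holds methylation at imprinted regions, read 6.05 and 6.54 in Tfap2c-/- PGCLCs, against 4.81 and 4.88 in control PGCLCs (difference 1.45, SE 0.20, adjusted p = 0.0132). Uhrf1, which brings the maintenance methyltransferase to replicating DNA, read 9.84 and 9.94 in Tfap2c-/- PGCLCs, against 8.69 and 8.29 in control PGCLCs (difference 1.41, SE 0.18, adjusted p = 0.0103). Dppa3 (Stella), which shields methylation in the early embryo and keeps imprinting of the Dlk1-Dio3 region in induced mouse pluripotent cells, read 6.28 and 6.40 in Tfap2c-/- PGCLCs, against 10.37 and 10.87 in control PGCLCs (difference −4.28, SE 0.85, adjusted p = 0.0413). For each of these genes both Tfap2c-/- arrays lay on one side of both controls. With each of the 8 arrays left out in turn, Zfp57 and Uhrf1 passed in 5 fits of 8, both being lost without Tfap2c-/- PGCLC array 2 or control PGCLC array 2, and Dppa3 in 4, being lost without any 1 of the 4 PGCLC arrays. Zfp57 was also lost without control PGCLC array 1, Uhrf1 without Tfap2c-/- PGCLC array 1, Zfp57 with only the PGCLC arrays in the fit, and Dppa3 with its probe sets averaged or with no variance trend. In ESCs none of the 15 passed, as 0% of all genes did by limma (455 genes at an unadjusted p under 0.05). Over the 15 genes Tfap2c-/- array 2 lay more than 1.5 from array 1 in 1 instance, Dppa3 in ESCs, with 4.62 and 6.55 in Tfap2c-/- ESCs, against 5.27 and 7.88 in control ESCs. Dnmt3l, the cofactor of the de novo methyltransferases, read 8.96 and 7.99 in Tfap2c-/- PGCLCs, against 6.51 and 4.01 in control PGCLCs. Its difference of 3.22 fell just short of the threshold (SE 0.71, adjusted p = 0.0585, limma). The study lists Dnmt3l as upregulated by its fold rule and by quantitative RT-PCR. It also reports TFAP2C binding there by chromatin immunoprecipitation. Of 5 subunits or partners of Polycomb repressive complex 2, which adds the H3K27 methyl mark, none passed in either comparison of Tfap2c-/- with control cells and none differed by 1.5 between Tfap2c-/- arrays. Eed was lower by 0.64 in control PGCLCs than in control ESCs (SE 0.11, adjusted p = 0.0156), a call lost without either control PGCLC array, without control ESC array 1 or with its probe sets averaged.

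The profiles most like that of Meg3 were looked for among 399 genes with a range of at least 3 on the log2 scale. Over the 8 arrays Pearson r with Meg3 was 1.00 for Rian and 0.96 for Mirg. The nearest other gene was Nudt12, a Nudix hydrolase, at 0.77, followed by Bnip3 at 0.71, Fmr1nb and Mael at 0.69 and Rnf157 at 0.64. Nudt12 read 4.46 and 3.23 in Tfap2c-/- PGCLCs, against 4.31 and 3.94 in control PGCLCs. In Tfap2c-/- ESCs it read 5.17 and 2.07, against 5.53 and 5.63 in control ESCs, so that it was low on both Tfap2c-/- arrays numbered 2. Mael, which acts in piRNA silencing of transposons in the male germ line, read 5.09 and 1.80 in Tfap2c-/- ESCs, against 3.85 and 5.09 in control ESCs. These low values of Nudt12 and Mael lie under the medians of Tfap2c-/- arrays 2, 3.55 in PGCLCs and 3.51 in ESCs. They cannot be told from background. The most opposite were Nod1 at −0.76, Cep126 at −0.68, Kcnq1ot1 at −0.65, Runx1t1 at −0.64 and Kantr at −0.61. Kcnq1ot1, an imprinted noncoding RNA of another region, read 6.09 and 6.97 in Tfap2c-/- PGCLCs, against 5.48 and 6.46 in control PGCLCs. For Dlk1 the correlation with Meg3 was −0.13. These are descriptions over 8 arrays that share groups and normalization. For Rian and Mirg r also takes in the split that they were chosen for.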

How the data were processed

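The 8 arrays gave 2 a group. The deposited values are on the log2 scale and had been normalized across arrays by the authors, with RMA according to the methods or with GCRMA according to the submitters' processing notes (no version). They were used as they are; probe intensities were not analysed here. The 2 arrays of a group stand for 2 ESC lines, as the study names them, and how many cultures stand behind an array is not given in the sources used here. P-values measure the spread between these arrays, which may be technical, and their number limits the precision.

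The 64 control probe sets were left out. Each gene was read from the probe set whose mean across the 8 arrays was highest, among those that name 1 gene. A common fit of the 4 group means was made with limma 3.58.1 in R 4.3.3 (4 residual and 3.67 prior degrees of freedom, eBayes with a trend), two-sided, with Benjamini-Hochberg adjustment over all genes and a threshold of 0.05, and tested on simulated data. Python 3.11.15, NumPy 2.4.6, pandas 2.3.3 and Matplotlib 3.10.9 served for the rest. Start windows and gene order come from RefSeq (GRCm38.p6).

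Members and gene lists were chosen with earlier results of these data known. Named were all members, the 5 genes most and the 5 least like Meg3, the 5 largest differences between Tfap2c-/- arrays in both cell types each way (2 upward), and from each list up to 4 genes past limma or the 2 largest. Begain, Rtl1, H19, Hymai, Zrsr1, Nanos3 and T, among others of the lists, were not analysed here.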

Additional observations from a re-analysis of the deposited data

How the results depend on the processing

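Counts of genes past limma and the members' differences between control PGCLCs and control ESCs were recomputed under another choice or mean of probe sets, without a variance trend, with dim genes left out, with median centring or quantile normalization, with only the arrays of the groups compared, with the replicate number as a block and with each array left out. The members' differences of Tfap2c-/- from control were recomputed with the other probe sets, both normalizations and each array left out, those between Tfap2c-/- arrays with the first 2 of these, and the fold rule at 1 other threshold; correlations, ranks, probe set tallies and list medians were not recomputed. The count of genes past limma was 1522 in control PGCLCs against control ESCs, 562 in Tfap2c-/- against control PGCLCs and 0 in Tfap2c-/- against control ESCs (455 at an unadjusted p under 0.05). With 1 array left out these counts were between 325 and 1721, between 87 and 609 and between 0 and 1. The first was lowest without control ESC array 1, and was 390, 523 and 653 without control PGCLC array 2, control ESC array 2 and control PGCLC array 1. The second was lowest without control PGCLC array 2, 98 and 230 without Tfap2c-/- PGCLC arrays 2 and 1, and 187 with only the 4 PGCLC arrays. A fold threshold of 1 in place of 1.5 passed 1449 probe sets in PGCLCs, against 540 at 1.5, and 123 in ESCs, against 34. Where an array was left out, the lone array of its group was assumed to vary like the others.

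The numbers of the arrays were not shown to pair them. Over genes, array 2 minus array 1 correlated between groups at −0.33 to 0.39. The replicate block gave 1571, 556 and 0 genes. Because Tfap2c-/- and control ESCs correlated at −0.33, the control ESC numbers were also crossed, a choice made after seeing the data, which gave 2252, 912 and 0.

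In control PGCLCs minus control ESCs, Meg3 (−1.55), Rian (−1.56) and Mirg (−1.86) passed with only the control arrays in the fit and in no other setting. With 1 array left out they ran from −1.88 to −1.23, −1.95 to −1.17 and −2.21 to −1.51, and Dlk1 from 1.17 to 2.95. With the mean of all probe sets Meg3 was at −0.69 and Dlk1 at 0.97. In Tfap2c-/- minus control PGCLCs that mean gave −0.20 for Meg3 (−1.03 otherwise) and 0.09 for Rian (−1.50). Dlk1 (2.06) passed with the block, with dim genes left out and without control PGCLC array 2, and was at −0.13 where probe sets liable to cross-hybridize were left out, which leaves only its dim probe set. With the mean of all probe sets of a gene, Tfap2c-/- array 2 minus array 1 was −3.82 for Meg3, −4.74 for Rian and −3.55 for Mirg in PGCLCs and −1.61, −2.75 and −2.13 in ESCs, still the lower array each time. With 1 array left out, the marker calls between the control groups passed in 8 fits of 8 for Klf4, 4 for Prdm1 (not without any 1 of the control arrays) and 3 for Dppa3. Dppa3 was lost without either control PGCLC array, control ESC array 1 or either Tfap2c-/- PGCLC array and with only the control arrays in the fit, and no named call changed sign.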
